A study of Mus musculus with 4 samples.

Results

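Small expanded T-cell clones of the pancreatic islet were compared with T cells seen once in the same library. The clones were defined by a rule on clone size: a clonotype was a set of called cells of 1 library with identical V segment, J segment and CDR3 bases in both receptor chains, and clonotypes of 2 to 9 cells were set against clonotypes of 1 cell, called singletons below. There were 927 such small clonotypes and 6154 singletons among 7179 clonotypes, and they held 2927 and 6154 of 11035 paired cells. The remaining 98 clonotypes had 10 or more cells. Clone size chose both classes, so the numbers of clonotypes and cells are descriptions and were not tested.

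The cells came from the islets of NOD mice, in which diabetes arises from autoimmune loss of beta cells, and of Tet2KO NOD mice, which lack the DNA demethylating enzyme Tet2. The Tet2-/- allele came from breeders of B6 background and was crossed to NOD for over 14 generations, per the labels. Each of the 4 libraries (NOD 1, NOD 2, Tet2KO NOD 1, Tet2KO NOD 2) was a pool of 4 to 6 mice, so the spread between libraries is the spread between pools, and a clonotype can hold cells of several mice. The series text puts the mice at 10 to 13 weeks of age. The protocol counts those weeks from an event abbreviated BTM and mentions bone marrow donors, and which of these holds for the 4 libraries was not settled. The deletion itself cannot be checked in receptor sequences.

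An alpha beta T-cell receptor pairs a TRA chain with a TRB chain. Each chain is joined in the thymus from V and J segments, with a D segment in TRB, and bases trimmed or added at the joints make up the CDR3 loop, which contacts the peptide on the presenting molecule. Cells of 1 clone inherit the same pair of rearrangements, whereas equal receptors made by different bases come from separate rearrangements. In NOD islets, receptors with TRAV5D-4 are known for recognising an insulin peptide, and CD8 T cells with TRAV16 joined to TRAJ42 for recognising IGRP, a protein of beta cells.

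NOD 1, NOD 2, Tet2KO NOD 1 and Tet2KO NOD 2 gave 5564, 2475, 1604 and 1392 paired cells. Small clonotypes numbered 433, 205, 149 and 140 against 3109, 1470, 729 and 846 singletons, and made up 12.0%, 12.1%, 16.6% and 14.1% of clonotypes. At the edges of the rule, 227, 112, 80 and 76 clonotypes had 2 cells, 10, 3, 2 and 4 had 9 cells, and 7, 2, 1 and 1 had 10 cells and were left out. There were 81 barcodes called in more than 1 library, with 4 to 30 shared by each pair of libraries, and no shared barcode carried the same clonotype in both.

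Clonotypes built from the same 4 segments in several libraries are shown first. Likeness by 4 segments was chosen as a measure after the values were seen. The combination TRBV20, TRBJ1-2, TRAV5N-4 and TRAJ37 is shown because its 6 small clonotypes came from all 4 libraries with 6 different TRB rearrangements. Below are their CDR3 bases, 5′ to 3′ from the conserved cysteine codon to the last codon of the loop, with bases matched by neither the V nor the J germline segment in capitals. Bases of the D segment are therefore among the capitals of TRB.
NOD 1, 6 cells, TRB: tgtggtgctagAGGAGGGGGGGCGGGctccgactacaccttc
NOD 1, 4 cells, TRB: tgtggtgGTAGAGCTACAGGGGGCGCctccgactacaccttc
NOD 2, 3 cells, TRB: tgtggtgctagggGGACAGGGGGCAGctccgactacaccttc
Tet2KO NOD 1, 2 cells, TRB: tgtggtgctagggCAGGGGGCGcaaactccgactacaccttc
Tet2KO NOD 2, 7 cells, TRB: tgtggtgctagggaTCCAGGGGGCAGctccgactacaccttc
Tet2KO NOD 2, 2 cells, TRB: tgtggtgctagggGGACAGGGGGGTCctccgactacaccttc
NOD 1, 6 cells, TRA: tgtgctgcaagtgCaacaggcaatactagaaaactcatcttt
NOD 1, 4 cells, TRA: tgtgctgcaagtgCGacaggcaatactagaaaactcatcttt
NOD 2, 3 cells, TRA: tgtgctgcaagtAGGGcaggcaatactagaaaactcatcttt
Tet2KO NOD 1, 2 cells, TRA: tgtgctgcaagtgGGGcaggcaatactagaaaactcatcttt
Tet2KO NOD 2, 7 cells, TRA: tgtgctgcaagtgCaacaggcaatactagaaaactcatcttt
Tet2KO NOD 2, 2 cells, TRA: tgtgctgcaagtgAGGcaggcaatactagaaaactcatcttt
All 6 have 14 residues in each loop. The TRB loops of NOD 2 and of the 2-cell clonotype of Tet2KO NOD 2 encode the same residues with different bases. The TRA loops encode the same residues in 3 of the 6, namely both clonotypes of NOD 1 and the 7-cell clonotype of Tet2KO NOD 2. Only 1 singleton, in NOD 2, had these 4 segments, and no clonotype of 10 or more cells did. The combination was chosen by its small clonotypes, so these counts are a description. It is 1 of 8 combinations with at least 4 small clonotypes, which together held 44 small clonotypes and 39 singletons.

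Another set is shown because the residues of the whole TRB loop recurred. One TRB loop of 12 residues, from TRBV13-3 and TRBJ2-7 and paired with TRAV16N and TRAJ42, occurred in small clonotypes of every library, each time with other bases.
NOD 1, 2 cells, TRB: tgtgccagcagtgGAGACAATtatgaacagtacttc
NOD 2, 4 cells, TRB: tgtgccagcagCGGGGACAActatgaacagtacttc
Tet2KO NOD 1, 3 cells, TRB: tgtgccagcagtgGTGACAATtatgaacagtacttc
Tet2KO NOD 2, 4 cells, TRB: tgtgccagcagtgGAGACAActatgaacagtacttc
NOD 1, 2 cells, TRA: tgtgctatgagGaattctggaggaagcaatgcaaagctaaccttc
NOD 2, 4 cells, TRA: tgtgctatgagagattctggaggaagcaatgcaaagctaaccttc
Tet2KO NOD 1, 3 cells, TRA: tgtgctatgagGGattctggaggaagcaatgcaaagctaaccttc
Tet2KO NOD 2, 4 cells, TRA: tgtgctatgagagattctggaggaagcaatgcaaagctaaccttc
The TRA loops have 15 residues, and those of NOD 2 and both Tet2KO NOD libraries encode the same residues. They carry 0 to 2 bases outside the germline segments, against 7 to 9 in the TRB loops. A singleton of NOD 1 had the same 4 segments and the same TRB residues, again with other bases.

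Receptors of small clonotypes recurred more often than those of singletons by each of 5 measures, of which the pair on full receptors was added after the data had been seen. The broadest of that pair was the share of a library's clonotypes whose 4 segments occurred together in another library with other TRB CDR3 bases. It was 20.6%, 24.9%, 22.8% and 29.3% for small clonotypes of NOD 1, NOD 2, Tet2KO NOD 1 and Tet2KO NOD 2, and 4.31%, 7.14%, 7.96% and 10.8% for singletons. The lowest small value stood above the highest singleton value, so the classes did not overlap. The means were 24.4% ± 3.71 and 7.54% ± 2.65 (SD, n = 4 libraries), a difference of 16.8 percentage points ± 1.62 and a ratio of 3.46, between 2.72 and 4.77 by library. It was higher in 4 of 4 libraries. Other bases can encode the same TRB residues, so 1 clonotype can count in several of the 5 measures. Each library was matched to the other libraries, so a shared receptor can count in every library that holds it. The 4 differences are therefore not independent of one another, here and for the other measures that look in another library. Their SD and p-value treat them as if they were. Each library is also a pool of mice, so a receptor made with the same bases in different mice would count as a small clonotype. The part of this in the recurrence was not tested. With 4 libraries the exact two-sided sign-flip permutation test cannot go below 1 in 8, printed as p = 0.13, which is the value here (0.188 after Benjamini-Hochberg adjustment over 24 values compared in this way), so none of these values could pass 0.05.

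In clonotypes, 215 of 927 small clonotypes and 388 of 6154 singletons met that measure. Clonotypes of 10 or more cells, 98 in all, met it in 37.9% ± 6.81 (SD, n = 4). The difference was 16.1 points for clonotypes of 2 cells and 17.7 points for those of 3 to 9 cells, both against singletons. In cells with at least 5 UMIs (unique molecular identifiers) of each chain it was 16.4 points, and it was 14.99 points with all libraries cut at random to the 1392 paired cells of the smallest. Whether the more frequent use of certain segments in the small clonotypes has a part in it was not tested.

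The TRB loop alone gave a like picture. Its residues were found in another library with other bases for 7.16%, 9.27%, 9.40% and 18.6% of small clonotypes, against 2.44%, 4.42%, 4.66% and 5.91% of singletons. The smallest small value again exceeded the largest singleton value. Means were 11.1% ± 5.09 and 4.36% ± 1.43 (SD, n = 4), higher in 4 of 4 libraries, with an exact sign-flip p = 0.13. Identical TRB CDR3 bases in another library were seen for 4.99% ± 1.93 of small clonotypes and 1.77% ± 0.70 of singletons. Within 1 library, the TRB residues occurred with over 1 base sequence for 4.95% ± 3.15 and 1.81% ± 0.18. That last difference was 7.63 points in Tet2KO NOD 2 and 0.37 points in Tet2KO NOD 1.

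Full receptors recurred too. The residues of both CDR3 loops were found in another library with other bases for 18, 9, 8 and 10 small clonotypes, which is 4.16%, 4.39%, 5.37% and 7.14%. For singletons the counts were 15, 15, 4 and 17, which is 0.48%, 1.02%, 0.55% and 2.01%. Means were 5.26% ± 1.36 and 1.02% ± 0.70 (SD, n = 4), a ratio of 6.56, and the classes did not overlap. Leaving out the most recurrent pair of loops gave 4.93% and 0.86%.

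**Figure D1:**
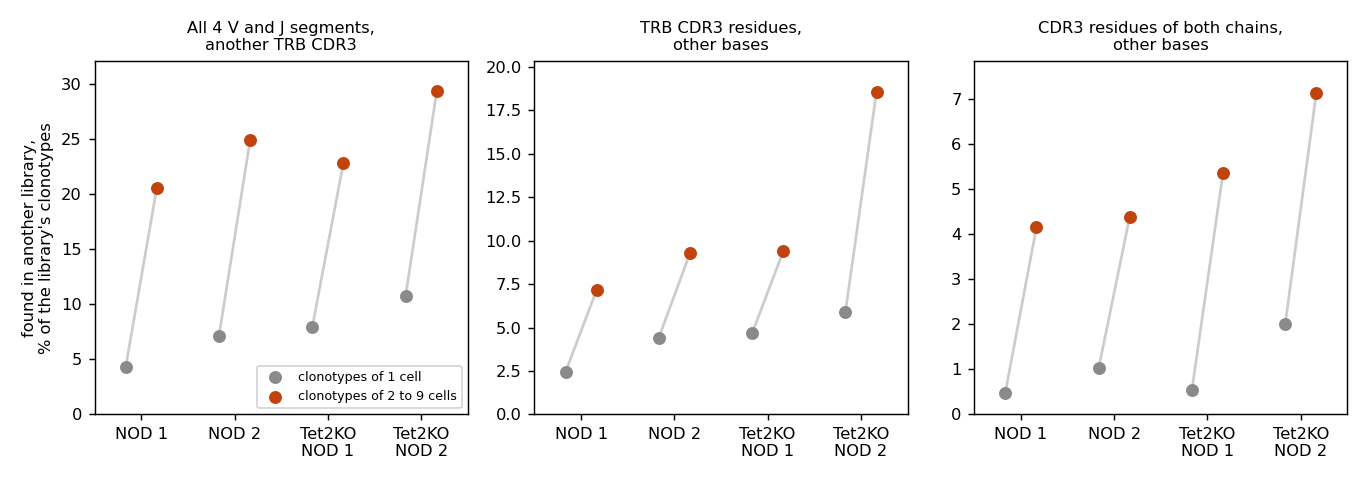
Share of each library's clonotypes, in percent, that were found in another library by 3 measures of likeness, for clonotypes of 1 cell (grey) and of 2 to 9 cells (red), with a line joining the classes of 1 library. Every red point lies above the grey point of its library, and the 4-segment shares run from 20.6% to 29.3% for small clonotypes and from 4.31% to 10.8% for singletons.

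The 3 recurring pairs of loops with the largest small clonotypes are shown because they differ in how they recur. The first, TRBV31 with TRAV7-4, was seen in Tet2KO NOD 2 alone, with 1 TRB rearrangement beside 5 different TRA rearrangements that all encode the same 13 residues, in clonotypes of 9, 4, 1, 1 and 1 cells.
TRB of all 5: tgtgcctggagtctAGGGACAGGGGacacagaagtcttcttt
9 cells, TRA: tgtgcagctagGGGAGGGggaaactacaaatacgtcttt
4 cells, TRA: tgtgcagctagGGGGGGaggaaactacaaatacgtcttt
1 cell, TRA: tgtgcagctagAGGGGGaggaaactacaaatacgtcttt
1 cell, TRA: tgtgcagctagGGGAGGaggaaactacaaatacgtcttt
1 cell, TRA: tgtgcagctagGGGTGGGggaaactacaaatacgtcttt
The second, TRBV19 with TRAV2, gave the same 14 residues in each loop in a clonotype of 9 cells in NOD 2 and one of 2 cells in Tet2KO NOD 1, and both chains differed in their bases.
NOD 2, TRB: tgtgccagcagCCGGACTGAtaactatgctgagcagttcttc
Tet2KO NOD 1, TRB: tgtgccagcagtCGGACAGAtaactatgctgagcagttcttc
NOD 2, TRA: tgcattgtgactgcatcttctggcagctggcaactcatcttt
Tet2KO NOD 1, TRA: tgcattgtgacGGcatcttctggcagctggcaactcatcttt
The third was the most recurrent of all, a TRB loop of 10 residues with a TRAV6D-6 and TRAJ45 loop of 15 residues. It occurred in all 4 libraries in 14 clonotypes and 60 cells (4 small, 7 singletons and 3 of 10 or more cells), written with 3 TRB and 3 TRA base sequences. The V segment of its TRB was named TRBV12-2+TRBV13-2 in some of these clonotypes and TRBV13-2 in others. Receptors that differ in that name alone would count apart among the 14.
TRB, form 1: tgtgccagcggtgactatgaacagtacttc
TRB, form 2: tgtgccagcggtgattatgaacagtacttc
TRB, form 3: tgtgccagcggGGActatgaacagtacttc
TRA, form 1: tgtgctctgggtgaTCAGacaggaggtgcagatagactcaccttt
TRA, form 2: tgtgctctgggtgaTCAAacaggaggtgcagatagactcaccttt
TRA, form 3: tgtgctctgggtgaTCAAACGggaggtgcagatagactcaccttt
Forms 1 and 2 of its TRB loop need no base outside the germline V and J segments. In all, 51 pairs of loops were written with over 1 base sequence, of which 37 were in over 1 library and 36 included a small clonotype.

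Among 6631 combinations of 4 segments, 8 held at least 4 small clonotypes. This list was drawn up after the values were seen, so its counts are a description. The 8 combinations held 44 small clonotypes, 39 singletons and 5 clonotypes of 10 or more cells. TRBV13-3, TRBJ2-7, TRAV16N and TRAJ42 led with 9 small clonotypes in all 4 libraries beside 4 singletons. TRBV19, TRBJ2-7, TRAV5-4 and TRAJ53 had 8 small clonotypes in all 4 libraries beside 14 singletons, and 5 clonotypes of 3 libraries had the same residues in both loops, of 14 residues in TRB and 15 in TRA. TRBV19, TRBJ2-1, TRAV2 and TRAJ22 had 5 small clonotypes and 1 singleton. In each of the 8 combinations the small clonotypes shared a single CDR3 alpha length. The singletons of these combinations had that length too, so it does not set the classes apart. The exceptions were a singleton of NOD 1 with TRAV5-1 and TRAJ32 and another of Tet2KO NOD 1 with TRBV5, TRAV5-4 and TRAJ45.

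Receptors with a TRAV16 family segment and TRAJ42, the type known from IGRP-specific CD8 cells, made up 1.62%, 2.93%, 2.01% and 2.86% of small clonotypes and 0.51%, 0.27%, 0.69% and 0.24% of singletons. The classes did not overlap, with means of 2.35% ± 0.64 and 0.43% ± 0.21 (SD, n = 4). They were 20 small clonotypes, 27 singletons and 10 clonotypes of 10 or more cells. Those that also used TRBV13-3 were 13 small clonotypes and 8 singletons. TRAJ42 joined to other V segments was at 2.12% ± 0.54 of small clonotypes and 2.69% ± 0.55 of singletons, and TRBV13-3 by itself was at 5.93% ± 1.97 and 5.20% ± 0.29. No test was made of this pair, which was known from earlier results of these data.

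Segment by segment, 2 of the 117 V and J segments tested differed between the classes, which is 1.71% of the segments. The test was edgeR's quasi-likelihood test on the number of clonotypes with each segment, each clonotype counted once, with the library as a block and Benjamini-Hochberg adjustment over the 117. The TRA segment TRAV5N-4 was higher and the TRB name TRBV13-2 lower in small clonotypes. At an unadjusted p under 0.05 there were 16 segments (13.7%), 6 higher (5.13%) and 10 lower (8.55%). DESeq2 on the same counts called 0 after adjustment and 3 (2.56%) before it.

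**Figure D2:**
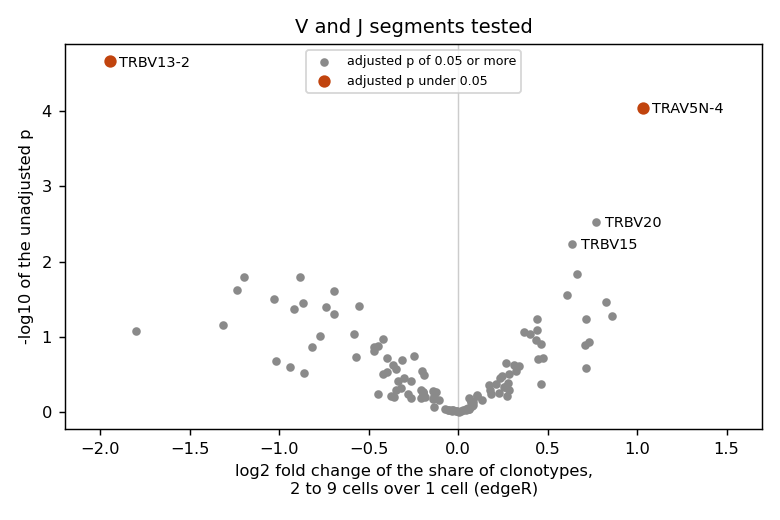
Each point is 1 of the 117 V and J segments tested, with the log2 fold change of its share of clonotypes (2 to 9 cells over 1 cell) on the horizontal axis and −log10 of the unadjusted edgeR p on the vertical axis. The 2 red points passed the adjusted threshold: TRAV5N-4 at 1.03 and TRBV13-2 at −1.95.

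TRAV5N-4 lies on chromosome 14 (GRCm38, bases 53312904 to 53313422, plus strand) in the N copy of the duplicated V alpha cluster. It was carried by 21, 10, 8 and 11 small clonotypes, or 4.85%, 4.88%, 5.37% and 7.86% of the class, and by 73, 35, 23 and 28 singletons, or 2.35%, 2.38%, 3.16% and 3.31%. Every small value exceeded every singleton value. The means were 5.74% ± 1.43 and 2.80% ± 0.51 (SD, n = 4), a log2 fold change of 1.03 (SE 0.26, edgeR adjusted p = 0.00524), higher in 4 of 4 libraries. Over 21 alternatives its direction held in all and the call in 13, with log2 fold changes from 0.81 to 1.24 and adjusted p from 0.00157 to 0.56. The call was lost without NOD 1 (edgeR adjusted p = 0.242), without NOD 2 (0.0672) and without Tet2KO NOD 2 (0.0549), in cells with at least 5 UMIs of each chain (0.157), and in DESeq2 (0.231). It was also lost for clonotypes of 2 cells (edgeR adjusted p = 0.56) and for those of 3 to 9 cells (0.0511), each against singletons. The same held with all libraries cut at random to the size of the smallest (edgeR adjusted p = 0.156).

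The segment differs from TRAV5-4 by 1 base in CDR1 and by none in CDR2, as read in the deposited contigs. The base that differs is in capitals.
TRAV5N-4 CDR1: Aacagtgcctccaactac
TRAV5-4 CDR1: Gacagtgcctccaactac
The first codon encodes asparagine in TRAV5N-4 and aspartate in TRAV5-4, and the loop was as printed in all 472 TRAV5N-4 contigs and all 1090 TRAV5-4 contigs. TRAV5-4 was at 8.17% ± 1.02 of small clonotypes and 6.56% ± 0.57 of singletons (edgeR log2 fold change 0.37, adjusted p = 0.417). Merged under 1 name with its copies, the pair gave a log2 fold change of 0.60 (edgeR adjusted p = 0.0404). Near-identical copies of TRAV segments are named by their closest match, so single bases decide between them.

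The 50 small TRAV5N-4 clonotypes used 13 TRBV names and 20 TRAJ segments and had 49 different TRB loops. Most were near the lower edge of the size range, with 23 of 2 cells and 11 of 3 cells. By size, TRAV5N-4 was at 2.80% of clonotypes of 1 cell, 5.73% of 2 cells, 4.53% of 3 to 4 cells and 7.67% of 5 to 9 cells, as means over libraries. For clonotypes of 10 or more cells that mean was 1.44% ± 2.88 (SD, n = 4), below singletons. Only 3 of them had it, all in NOD 1. That is 5.77% of the 52 of that library, above its singletons and its small clonotypes. The largest small clonotype with TRAV5N-4 paired TRBV5 with TRAJ26 in 9 cells of NOD 1.
NOD 1, TRAV5N-4, 9 cells, TRB: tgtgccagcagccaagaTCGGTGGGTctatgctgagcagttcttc
NOD 1, TRAV5N-4, 9 cells, TRA: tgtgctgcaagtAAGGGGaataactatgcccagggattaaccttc
Its partners were looked at after the values were seen. TRBV20 was the partner of 10 of the 50 small TRAV5N-4 clonotypes and of 6 of 159 singletons, and TRBV1 of 10 and of 12. TRBJ1-2 was the beta J segment of 11 and of 12, and TRAJ37 the alpha J segment of 9 and of 7. Without the TRBV20 pairs TRAV5N-4 was at 4.62% ± 1.32 of small clonotypes and 2.71% ± 0.53 of singletons, still higher in 4 of 4 libraries.

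TRBV13-2 was the name of 5, 1, 0 and 1 small clonotypes and of 81, 53, 16 and 33 singletons, which is 1.15%, 0.49%, 0% and 0.71% against 2.61%, 3.61%, 2.19% and 3.90% (log2 fold change −1.95, SE 0.45, edgeR adjusted p = 0.00256, lower in 4 of 4 libraries). The files also hold a joined name, TRBV12-2+TRBV13-2, at 10.4% ± 1.99 of small clonotypes and 11.7% ± 1.71 of singletons. Contigs named TRBV13-2 alone were shorter, with medians of 533, 543, 533 and 543 bases against 567, 568, 567 and 570, and had fewer UMIs, at means of 7.24, 10.2, 6.70 and 7.86 against 11.6, 15.4, 11.1 and 11.9. In 52 clonotypes the receptor differed from another of the same library in that name alone, and 32 of these were singletons. With both names read as TRBV13-2, the log2 fold change was −0.31 (edgeR adjusted p = 0.37) and TRAV5N-4 was the 1 segment of 116 called (0.862%). At an unadjusted p under 0.05 there were then 6 higher (5.17%) and 8 lower (6.9%). In cells with at least 3 UMIs of each chain the log2 fold change of the name TRBV13-2 alone was −2.51 (edgeR adjusted p = 0.000871), and with at least 5 it was −1.64 (edgeR adjusted p = 0.157). Without NOD 2 it was −1.72 (edgeR adjusted p = 0.0672).

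**Figure D3:**
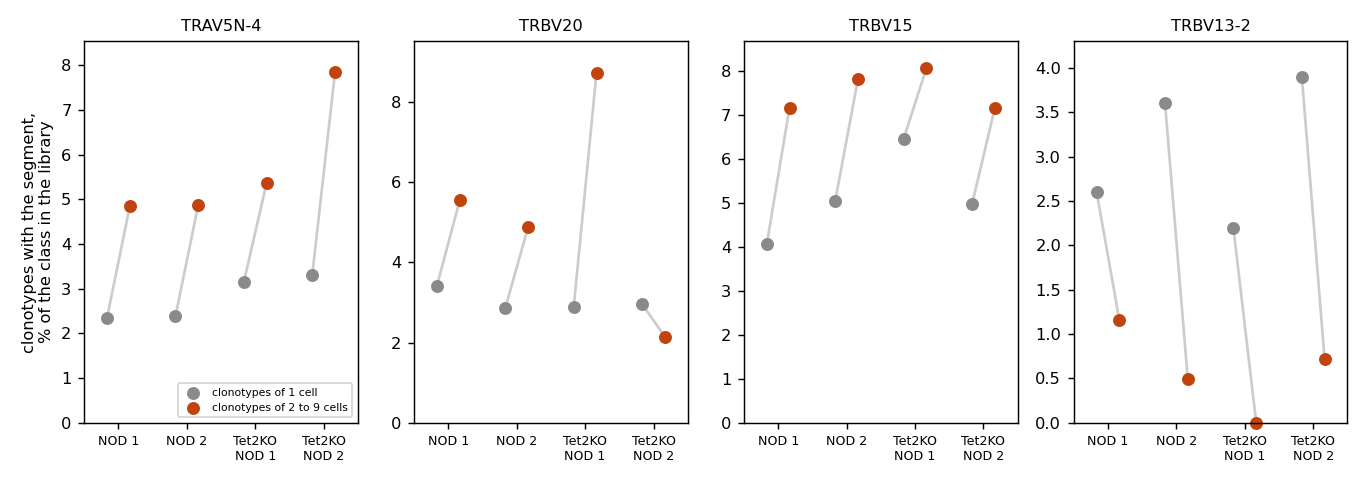
Share of the clonotypes of each class, in percent, with TRAV5N-4, TRBV20, TRBV15 or TRBV13-2 in each library (grey, 1 cell; red, 2 to 9 cells; lines join the classes of 1 library). TRAV5N-4 and TRBV15 were higher in small clonotypes in 4 of 4 libraries, TRBV20 in 3 of 4, and TRBV13-2 lower in 4 of 4.

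The next segments by p did not pass the adjustment. TRBV20 was at 5.54%, 4.88%, 8.72% and 2.14% of small clonotypes against 3.41%, 2.86%, 2.88% and 2.96% of singletons (log2 fold change 0.77, SE 0.26, edgeR adjusted p = 0.116), with Tet2KO NOD 2 going the other way. It passed in 2 of 23 alternatives. TRBV15 was at 7.54% ± 0.46 and 5.12% ± 0.99 (log2 fold change 0.64, edgeR adjusted p = 0.17), higher in 4 of 4 libraries. TRAJ37 was at 4.34% and 2.78%, TRAJ42 at 4.47% and 3.12%, and TRAV7D-3 at 2.39% and 1.26%, each with an edgeR adjusted p between 0.268 and 0.312. Lower values in 4 of 4 libraries, with edgeR adjusted p in the same range, were seen for TRAJ39 (1.66% and 3.05%), TRAJ31 (2.74% and 4.39%), TRBV2 (3.90% and 5.46%), TRAV14N-2 (0.69% and 1.57%) and TRAV13-2 (0.64% and 1.55%).

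The most used segments mostly lay close together in both classes. TRBV5 was at 9.74% and 10.4%, TRBV19 at 8.77% and 8.77%, TRBV13-1 at 8.67% and 8.48%, and TRBJ2-7 at 21.0% and 20.5% of small clonotypes and singletons. TRBV1 was at 7.71% and 6.64% and TRBV16 at 8.20% and 6.65%. Among TRA segments, TRAV16N was at 7.27% and 5.35% and TRAV6N-7 at 3.93% and 5.91%, each with an edgeR adjusted p above 0.3. A share with the same direction in 4 of 4 libraries was found for 22 of the 117 segments (18.8%), 8 of them higher (6.84%) and 14 lower (12%).

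By family, the 3 TRAV5 segments summed to 15.5% ± 2.03 of small clonotypes and 10.98% ± 0.73 of singletons, higher in 4 of 4 libraries, with 1 of 3 segments called and a median log2 fold change of 0.37 against −0.04 over all segments. TRAV10 summed to 6.73% and 5.05%, also higher in 4 of 4, with 0 of 2 called. TRAV12 summed to 3.60% and 5.99%, TRAV4 to 3.19% and 5.13%, TRAV6 to 13.5% and 15.1% and TRAV13 to 7.82% and 8.61%, each lower in 4 of 4 libraries with 0 segments called. The rare TRAV2 was also higher and the rare TRAV11 also lower in 4 of 4. The remaining TRAV families had no common direction, where random signs alone give one in 12.5%. Family shares are not independent, since a higher one leaves less for the rest. Among J segments, TRAJ39 to TRAJ21 summed to 36.9% ± 2.20 and 39.9% ± 1.20, lower in 4 of 4 libraries, while TRAJ58 to TRAJ40 summed to 43.7% and 41.3% and TRAJ20 to TRAJ2 to 19.4% and 18.8%. The TRAJ number, which follows position along the locus, averaged 34.5 ± 0.97 and 34.3 ± 0.26. TRBJ2 segments were used by 66.1% ± 4.58 and 67.8% ± 1.68.

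CDR3 alpha loops of 13 residues were rarer in small clonotypes. They were 24.0%, 19.0%, 18.1% and 25.7% of small clonotypes and 28.6%, 28.9%, 26.2% and 28.1% of singletons, so each small value lay below every singleton value. The means were 21.7% ± 3.72 and 28.0% ± 1.22 (SD, n = 4), a log2 fold change of −0.34 (SE 0.07, edgeR adjusted p = 0.0142), lower in 4 of 4 libraries. This was the 1 length of 17 tested that passed (5.88%), in DESeq2 as well (log2 fold change −0.42, adjusted p = 0.00119). At an unadjusted p under 0.05 there were 3 lengths (17.6%). The call was lost without NOD 2 (edgeR adjusted p = 0.256) and without Tet2KO NOD 1 (0.0747). Over 21 alternatives the direction held in all and the call in 15.

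Loops of 14 residues were at 34.1% ± 1.67 and 29.2% ± 0.87, higher in 4 of 4 libraries (log2 fold change 0.23, edgeR adjusted p = 0.0853). In CDR3 beta, loops of 12 residues were at 13.3% ± 2.89 and 10.7% ± 1.53 (log2 fold change 0.31, edgeR adjusted p = 0.195) and loops of 13 residues at 16.6% ± 2.79 and 19.9% ± 1.22 (−0.18, adjusted p = 0.413). Mean CDR3 alpha length was 13.67, 13.81, 13.84 and 13.82 residues in small clonotypes and 13.63, 13.64, 13.64 and 13.59 in singletons, higher in 4 of 4 libraries. Mean CDR3 beta length was 13.86, 14.02, 13.81 and 13.90 against 14.01, 14.02, 13.99 and 14.04, a difference of −0.12 residues ± 0.08 that was near 0 in NOD 2. Both had an exact sign-flip p = 0.13, the smallest possible.

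**Figure D4:**
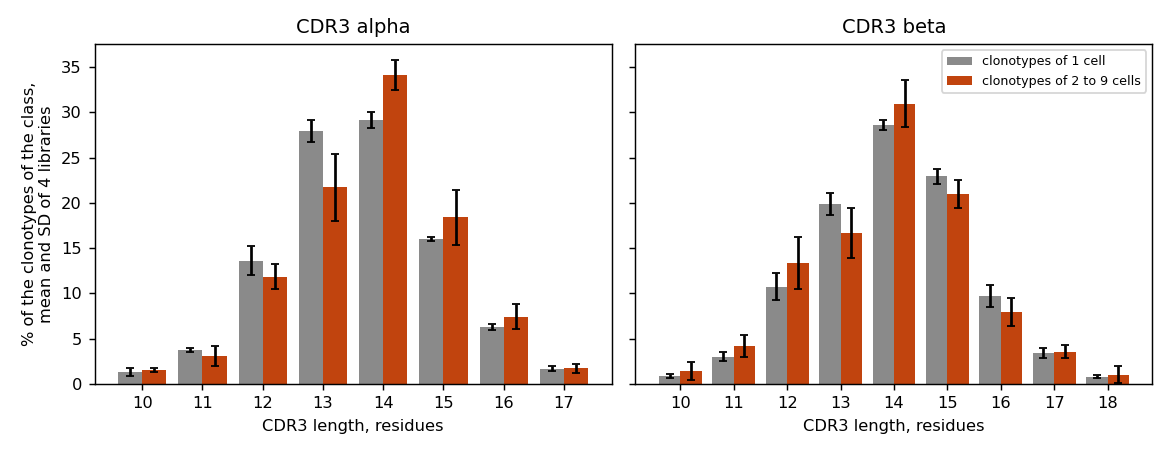
Share of clonotypes, in percent, by CDR3 length in residues for TRA (left) and TRB (right), as mean and SD of 4 libraries, in clonotypes of 1 cell (grey bars) and of 2 to 9 cells (red bars). CDR3 alpha loops of 13 residues stood at 21.7% in small clonotypes and 28.0% in singletons, and loops of 14 residues at 34.1% and 29.2%.

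The centre of the loops, with 4 residues left out at each end, showed no residue that passed. Of 38 residues tested, 0 passed in edgeR after adjustment (0%) and 2 had an unadjusted p under 0.05 (5.26%), 1 higher (2.63%) and 1 lower (2.63%). DESeq2 gave 0 by both counts. The largest shift by p was arginine in CDR3 alpha, present in the centre of 24.0%, 24.9%, 22.8% and 20% of small clonotypes and 20.3%, 19.8%, 20.7% and 17.6% of singletons (log2 fold change 0.24, edgeR adjusted p = 0.717). Proline in CDR3 alpha was at 7.54% and 10.7% (−0.46, edgeR adjusted p = 0.717). Net charge of the CDR3 alpha centre averaged −0.02 ± 0.05 in small clonotypes and −0.11 ± 0.01 in singletons, higher in 4 of 4 libraries by 0.10, 0.14, 0.02 and 0.10, with an exact sign-flip p = 0.13. Net charge of the CDR3 beta centre was −0.51 ± 0.05 and −0.52 ± 0.05.

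Kyte-Doolittle hydropathy, in which lower values are more polar, was −1.23 ± 0.03 in the CDR3 alpha centre of small clonotypes and −1.28 ± 0.02 in that of singletons, higher in 4 of 4 libraries. At residues 6 and 7 of CDR3 beta it was −1.26 ± 0.03 and −1.17 ± 0.05, lower in 4 of 4 libraries, though the difference was −0.00054 in Tet2KO NOD 1. Bases matched by neither V nor J numbered 10.1 ± 0.31 and 10.2 ± 0.18 in CDR3 beta and 3.32 ± 0.13 and 3.24 ± 0.09 in CDR3 alpha, with no common direction over libraries. A D segment was named for 20.9% ± 1.71 of small clonotypes and 23.7% ± 0.85 of singletons, lower in 4 of 4 libraries.

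Cells of small clonotypes carried more receptor UMIs than singletons. TRB UMIs per cell, averaged over clonotypes, were 16.1, 22.9, 14.0 and 18.7 in small clonotypes and 11.4, 14.7, 10.6 and 12.5 in singletons of the same libraries. The ratio was 1.45 on average and lay between 1.32 and 1.55, higher in 4 of 4 libraries (exact sign-flip p = 0.13). TRA UMIs per cell were 8.23, 10.9, 7.39 and 7.97 against 6.05, 7.59, 5.77 and 6.76, a ratio of 1.31 between 1.18 and 1.44. Across libraries the classes overlapped, with singletons of NOD 2 above small clonotypes of Tet2KO NOD 1, and the difference shows within each library. Medians over cells gave 12, 16, 10 and 14 TRB UMIs against 9, 11, 8 and 9.

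The UMI gap was present from the smallest clones on. TRB UMIs per cell averaged 12.3 ± 1.80 in singletons, 17.2 ± 3.33 in clonotypes of 2 cells, 18.4 ± 6.00 in those of 3 to 4, 19.1 ± 3.21 in those of 5 to 9, and 24.1 ± 5.82 in those of 10 or more (SD, n = 4). TRA UMIs were 6.54 ± 0.81, 8.59 ± 1.85, 8.49 ± 1.49, 8.91 ± 1.14 and 9.78 ± 0.86 in the same order. Between single clonotypes the spread was wide, with SDs of 10.7, 14.9, 9.43 and 12.9 TRB UMIs among the singletons of the 4 libraries. Among cells with at least 5 UMIs of each chain the ratio was 1.37 for TRB and 1.16 for TRA. Reads per TRB UMI went the other way, at 995, 1457, 2619 and 1871 in small clonotypes and 1011, 1603, 2843 and 2085 in singletons. A cell with few UMIs can lose a chain and leave the paired set, and the part of this in clone size was not tested.

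**Figure D5:**
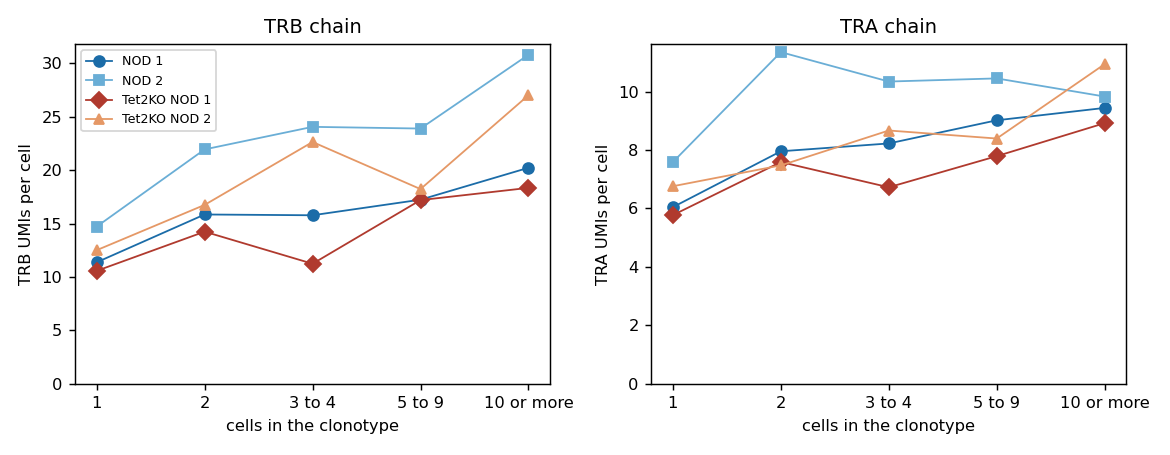
Mean UMIs per cell of the TRB chain (left) and the TRA chain (right) by the number of cells in the clonotype, 1 line per library. In every library clonotypes of 2 cells lie above clonotypes of 1 cell, with means of 17.2 and 12.3 TRB UMIs over the 4 libraries.

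Chains beside the pair showed whether cells of a small clonotype share their other rearrangements. A T cell can carry a second productive TRA, or a rearrangement of the other allele that is not productive. In 101 small clonotypes at least 2 cells had a second TRA, and in all 101 it was the same one in 2 or more cells. A nonproductive TRA was in at least 2 cells of 235 small clonotypes and was the same in 220 of them, or 93.6%, and a nonproductive TRB in 91 and the same in 84, or 92.3%. Cells with a second TRA were 11.9% ± 0.81 in small clonotypes and 12.4% ± 1.00 among singletons, higher in 2 of 4 libraries. Cells with a nonproductive TRA were 29.5%, 33.1%, 26.2% and 27.5% against 22.4%, 28.5%, 23.6% and 27.0%, higher in 4 of 4 libraries and by 0.52 points in Tet2KO NOD 2. Whether that share depends on the UMIs per cell given above was not tested.

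A clonotype of 9 cells, the largest size in the class, is printed from each library for the make-up of these receptors. None of the 4 shares a V segment pair with another.
NOD 1, TRBV17 and TRBJ2-1: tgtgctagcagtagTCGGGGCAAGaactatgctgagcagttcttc
NOD 1, TRAV9-1 and TRAJ34: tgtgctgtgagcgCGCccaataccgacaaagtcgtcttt
NOD 2, TRBV10 and TRBJ2-3: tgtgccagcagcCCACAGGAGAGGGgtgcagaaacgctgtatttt
NOD 2, TRAV9N-3 and TRAJ49: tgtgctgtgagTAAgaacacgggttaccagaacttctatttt
Tet2KO NOD 1, TRBV13-1 and TRBJ1-1: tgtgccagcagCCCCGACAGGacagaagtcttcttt
Tet2KO NOD 1, TRAV5-1 and TRAJ23: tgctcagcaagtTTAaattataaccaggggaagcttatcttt
Tet2KO NOD 2, TRBV13-1 and TRBJ1-6: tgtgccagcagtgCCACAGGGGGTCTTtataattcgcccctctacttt
Tet2KO NOD 2, TRAV6-3 and TRAJ31: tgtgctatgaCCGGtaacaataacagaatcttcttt
Their TRB loops carry 10 to 14 bases outside the V and J segments and their TRA loops 3 to 4. The mean over small clonotypes was 10.1 and 3.32. The largest small clonotype under the name TRBV13-2 had 6 cells in NOD 1 and a TRB loop of 11 residues.
NOD 1, TRBV13-2, 6 cells, TRB: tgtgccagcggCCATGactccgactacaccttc

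Receptors of other T-cell types were looked for as a check on the classes. The invariant natural killer T type (TRAV11 with TRAJ18) was seen in 11, 5, 3 and 5 singletons and in 0 small clonotypes, where a count of 0 allows up to 0.69%, 1.46%, 2.01% and 2.14% of the class. These limits lie above the singleton shares of 0.35%, 0.34%, 0.41% and 0.59%, so within a library a difference was not detectable at this depth. With the libraries summed, the type was at 24 of 6154 singletons (0.39%) and 0 of 927 small clonotypes. A count of 0 there allows up to 0.324%, which covers counting error only and leaves out the spread between libraries. No test was made, so a lower share in small clonotypes was not shown. The type of mucosal-associated invariant T cells (TRAV1 with TRAJ33) was seen in 5 singletons and 0 small clonotypes. No productive gamma or delta contig and no immunoglobulin contig was found.

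Between genotypes, the difference of small clonotypes from singletons was compared with an interaction term. In edgeR 0 of 117 segments passed (0%), and 2 had an unadjusted p under 0.05 (1.71%). TRAV5N-4 was higher in small clonotypes by 2.50 and 2.50 percentage points in the NOD libraries and by 2.21 and 4.55 points in the Tet2KO NOD libraries. The 4-segment recurrence differed by 16.2 and 17.7 points in NOD and by 14.9 and 18.5 points in Tet2KO NOD. TRB UMIs differed by 4.71 and 8.16 in NOD and by 3.40 and 6.17 in Tet2KO NOD. With 2 libraries a genotype, an exact two-sided permutation test cannot go below p = 0.33, so no value per library could show a genotype difference.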

How the data were processed

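Single-cell receptor sequencing of 4 islet libraries was used, each a table of assembled contigs with the called cell, segments, CDR3, reads, UMIs and length in bases. Reads and UMIs are deposited as raw counts per contig with no normalization, per the file headers. The authors used Cell Ranger 7.0.1 and GRCm38 (mm10), per the submitters' processing notes. For the V(D)J segment set, a reference was not given in the sources used here. Called cells with exactly 1 TRB and at least 1 TRA among high-confidence, full-length, productive contigs were kept, with the TRA of most UMIs. No doublet caller was run, and cells with several TRB were left out by the rule. The rule, the segment lists and the named receptors were chosen with earlier results of these data known.

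Numbers of clonotypes per segment, CDR3 centre residue (4 residues left out at each end) and CDR3 length of 10 to 18 residues were tested with edgeR 4.0.16 in R 4.3.3, quasi-likelihood, with the library as a block, at a total of at least 50 and an adjusted p under 0.05. DESeq2 1.42.0 was an alternative. The edgeR script was tested on simulated data. The block is the library, because both classes come from the same cells, and the design is paired by library. Values per library were compared by an exact sign-flip permutation test. SDs are between libraries. The sign-flip p-values rest on the spread between pools alone, and the edgeR p-values on a model of that spread and of the counting error of clonotypes. For lengths and residues the dispersion fitted by edgeR was near 0, at 9.8e-05. Its SE for CDR3 alpha loops of 13 residues was 0.07, below the 0.11 of DESeq2. The edgeR p-value of that length may therefore understate the spread. No p-value measures the spread between mice. PCR reads are not independent molecules, so limits cover counting error only. Deposited reads per library numbered 220516119, 140478435, 114106599 and 85137263. Text names the segments and lengths that passed, and those next by p or most used, by a rule. The measures on full receptors, on combinations of segments and on the partners of TRAV5N-4 were chosen after values were seen.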

Additional observations from a re-analysis of the deposited data

Results flagged for a closer look

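Differences between small clonotypes and singletons, 70 in all, were examined over the 4 libraries. Of these, 6 had 1 library apart from the other 3, where chance alone gives about 1 in 20. In 2 of the 70 the genotypes ran in opposite directions. Random signs alone give that in 12.5%, a share that 2 of 70 does not exceed.

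Tet2KO NOD 2 stood apart in 4 of the 6. Its small clonotypes exceeded its singletons by 12.7 percentage points in TRB loops found in another library with other bases, against 4.71, 4.85 and 4.73 in the others. TRAV5N-4 was higher in them by 4.55 points, against 2.50, 2.50 and 2.21. Named D segments differed by −6.13 points there, against −1.37, −1.93 and −1.83. TRAJ49 differed by −2.23 points there and by 1.54, 1.30 and 1.12 in the others. In NOD 1, bases outside V and J in CDR3 alpha differed by −0.15, against 0.19, 0.15 and 0.16 in the others. In Tet2KO NOD 1, TRAV4-2 differed by 0.37 points, against −1.25, −1.35 and −1.06.

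TRBJ2 use differed by 1.22 and 4.10 points in the NOD libraries and by −7.80 and −4.51 in the Tet2KO NOD libraries. The gap between the genotype means was −8.82 points. Cells with a nonproductive TRB differed by 2.39 and 1.17 points in NOD and by −0.77 and −3.49 in Tet2KO NOD, a gap of −3.91 points between the genotype means. For both, the exact permutation test over the 4 libraries gave p = 0.33, the smallest it can give.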

How the results depend on the processing

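Among 525 values under 26 alternatives for the main results, 480 were counted as unchanged. For values per library this meant the same direction alone, since none of them could pass 0.05. For numbers of features called it meant equal or similar numbers, 0 against 0 included. The 4-segment recurrence differed by 14.99 to 17.8 points under every one tried. The number of segments called in edgeR was 2 in the main fit, 0 after thinning and 0 for size 2. It was 1 for sizes 3 to 9 (TRBV13-2, not TRAV5N-4) and 1 with the joined TRBV name merged (TRAV5N-4). It was 0 with names merged and singletons sharing a TRB left out, 0 in cells with at least 5 UMIs and 0 in DESeq2, with 3 to 15 segments at an unadjusted p under 0.05. Leaving out 1 library gave 0 (without NOD 2) to 2. The 1 CDR3 length called became 0 without cells with over 1 TRA, for sizes 3 to 9, for size 2 and in cells with at least 5 UMIs, and 0 to 1 without 1 library. Fewer clonotypes enter most of these. Without the replicate block (the paired design) 2 segments and 1 length were called, and with set number by class as a replicate block 0 segments differed by genotype.

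The following small differences turned sign. CDR3 beta centre hydropathy became 0.016 and that of residues 6 and 7 became 0.024 for size 2. Beta centre charge became −0.00071 with the deposited clonotype numbers, −0.024 with at least 3 UMIs, −0.047 for sizes 3 to 9, −0.00093 with 3 residues left out and −0.078 with at least 5 UMIs (−0.016 to 0.035 without 1 library). Beta bases outside V and J became 0.084 with at least 3 UMIs. The TRAJ number became −0.39 after thinning, −0.43 for sizes 3 to 9 and −0.49 with at least 5 UMIs. TRBJ2 ranged from −3.70 to 0.27 points without 1 library. Cells with a second TRA became 0.16 points by TRB alone, 0.30 with deposited numbers, 0.53 without singletons sharing a TRB, 0.68 after thinning, 0 by construction without such cells, 2.03 for size 2 and 0.74 with names merged and shared TRB out (−1.09 to 0.16 without 1 library). Cells with a nonproductive TRB became 0.66, 0.25, 0.43 and 0.23 by TRB alone, with deposited numbers, with at least 3 UMIs and without cells with over 1 TRA (−1.03 to 0.93 without 1 library). TRAV7-3 became 0.055 with TRAV copies merged and 0.10 with names merged and shared TRB out, aspartate in CDR3 alpha 0.033 after thinning and lysine in CDR3 beta 0.0059 for sizes 3 to 9, all log2. The cause was not tested. Small clonotypes number 140 to 433 a library, which limits precision.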

Other observations

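TRAV5 family segments joined to TRAJ53 or TRAJ42, the joints known from insulin-reactive receptors, made up 1.51% ± 0.76 of small clonotypes and 0.96% ± 0.41 of singletons (SD, n = 4), higher in 3 of 4 libraries. They were 13 small clonotypes, 50 singletons and 4 clonotypes of 10 or more cells. TRAV2, a segment with too few clonotypes for the test, was at 0.92%, 1.46%, 1.34% and 1.43% of small clonotypes and 0.35%, 0.61%, 0.55% and 0.59% of singletons. It was higher in 4 of 4 libraries, as were 8 of the 117 segments tested (6.84%). Its shares rest on few small clonotypes in each library, and no test was made. Of the small clonotypes with TRAV2, 5 were the TRBV19, TRBJ2-1 and TRAJ22 receptors described above.

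CDR3 beta loops averaged 13.5, 13.1, 13.6 and 14.1 residues in the 52, 18, 21 and 7 clonotypes of 10 or more cells of NOD 1, NOD 2, Tet2KO NOD 1 and Tet2KO NOD 2, against 14.01, 14.02, 13.99 and 14.04 in their singletons. They were thus shorter in 3 of 4 libraries and longer in Tet2KO NOD 2, with no test. CDR3 alpha loops of 13 residues were at 15.4%, 27.8%, 14.3% and 28.6% of clonotypes of 10 or more cells.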
